A study of Mus musculus with 8 samples.

Results

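The enzymes and carriers that make and use arginine were followed through single cells of the mouse colon, as 9 rows of the UMI table (Ass1, Gm5424, Asl, Arg1, Arg2, Nos2, Slc7a2, Odc1 and Sat1) of 16889 genes in all. They were chosen by name for their roles in this metabolism, and Ass1, its copy Gm5424 and Arg1 were also chosen by the difference between the groups in these same counts. The differences between the groups in these 3 rows are therefore a description. Where calls of a fit over all genes are counted below, those of these rows follow from the choice and support nothing. From the lamina propria of the colon of female littermates aged 6 to 12 weeks, CD11b+ cells with CCR2 or CD64 on their surface were sorted. All mice were CD98hcΔCX3CR1, with floxed CD98hc (Slc3a2) alleles and a Cx3cr1-driven, tamoxifen-dependent Cre with YFP. The 4 control mice received corn oil and the 4 cKO mice received tamoxifen on 5 days, and cells were taken on day 7. No control mouse had tamoxifen, so the drug and the deletion cannot be told apart, and the Cre is made only where the Cx3cr1 promoter is active. Each mouse had its own well of 1 cartridge, and the mouse is the replicate. In the fits within clusters, sums of the same mouse in different clusters were treated as separate. After filtering, 3213 cells were kept (1863 control and 1350 cKO), with 83 to 724 cells and 497531 to 3762314 UMIs per mouse. Control replicate 3 and cKO replicate 5 were the smallest, with 85 and 83 cells, and 24 of the 83 cells of cKO replicate 5 were called doublets. Of the cell barcodes kept, 8 occurred in more than 1 library. Levels are given in CPM, the UMIs of a gene per 1000000 UMIs of the cells summed. The targeted gene Slc3a2 stood at 358, 264, 233 and 493 CPM in control replicates 1 to 4 and at 291, 357, 323 and 309 CPM in cKO replicates 5 to 8. These ranges overlap, and counts at the 3′ end are blind to a missing exon upstream, so the level does not check the deletion.

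Arginine is a substrate that several enzymes share. Argininosuccinate synthase (Ass1) joins citrulline to aspartate, and argininosuccinate lyase (Asl) splits the product into arginine and fumarate, so that a cell can rebuild arginine from citrulline. Arginases (Arg1 in the cytosol, Arg2 in mitochondria) turn arginine into ornithine and urea, whereas inducible nitric oxide synthase (Nos2) turns it into citrulline and nitric oxide. The carrier Slc7a2 brings arginine into the cell. Ornithine decarboxylase (Odc1) starts polyamine synthesis from ornithine, and Sat1 acetylates spermidine and spermine for export or breakdown. In mouse macrophages, Nos2 and Arg1 are the textbook markers of classical and alternative activation.

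Ass1 (ENSMUSG00000076441) lies on chromosome 2 of GRCm38 (mm10), chr2:31470207-31520672 on the plus strand. Gm5424 (ENSMUSG00000046687, chr10:62071123-62072362, plus strand) is annotated by GENCODE as a processed pseudogene. The 2 sequences were compared since a read can come from either. All 1240 bases of Gm5424 align without a gap to bases 203 to 1442 of the 1696-base Ass1 transcript, with 6 differences (99.5% identity). In bases counted from the start of the Ass1 transcript, the differences are T601C, T631C, A722T, G858C, T1213C and C1345T, with the base of Ass1 first, and all lie in the open reading frame of Ass1. That frame has 413 codons with its stop, and in Gm5424 the same frame also ends at codon 413. The 90 bases that hold T601C and T631C are shown because these 2 lie closest together, with differing bases in capitals. For Ass1 they are spliced from exons 5 to 7 of 16 (chr2:31481150-31488596), and for Gm5424 they lie in its only exon (chr10:62071472-62071561).
Ass1: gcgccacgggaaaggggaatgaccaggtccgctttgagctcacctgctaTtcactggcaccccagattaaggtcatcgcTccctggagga
Gm5424: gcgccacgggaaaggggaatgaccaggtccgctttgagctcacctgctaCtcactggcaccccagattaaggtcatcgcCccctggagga

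A read had 58 bases, and 863 of the 1183 stretches of that length in Gm5424 (73.0%) occur unchanged in Ass1. Of the 1639 such stretches in the Ass1 transcript, the same 863 make up 52.7%. The last 254 bases of Ass1 have no counterpart in the annotated Gm5424. The counts were split almost evenly. Gm5424 held 51.1, 55.6, 49.4 and 50.5% of the UMIs of the pair in control replicates 1 to 4, and 50, 52.1, 51.0 and 52.7% in cKO replicates 5 to 8. The means were 51.6 ± 2.73% and 51.5 ± 1.20% (SD, n = 4 mice each), a difference of -0.15 percentage points that was smaller than either SD (exact permutation test, two-sided, p = 0.914). If both rows count the same reads, this test could not show a difference, so nothing is read from it. In the 9 clusters described below, the share was between 50 and 54.2%.

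The rows also moved together cell by cell. A UMI of either row was found in 1115 cells and of both rows in 888 of them. In the 375 cells with at least 5 UMIs of the pair, the 2 counts were equal in 102 and differed by at most 2 in 330 (88.0%). The squared difference divided by the sum averaged 0.250 in these cells, where 1 is the value if each UMI fell in either row at random. The counts of the rows were thus closer to each other than a random split would give. For the values below, the rows are uncertain as separate genes and are read as 1 measurement.

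**Figure D1:**
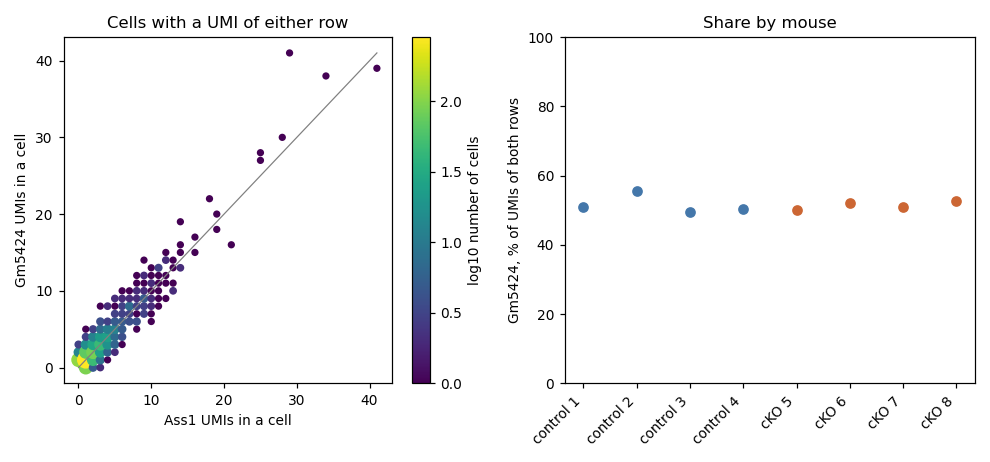
Left, UMIs of Ass1 (x axis) and Gm5424 (y axis) in each cell with a UMI of either row, with the number of cells in colour on a log10 scale and the line of equal counts in grey. Right, the percentage of the pair's UMIs in the Gm5424 row for each mouse, control in blue and cKO in orange, with all 8 mice between 49.4 and 55.6%.

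Over all cells of a mouse, the synthesis genes split. Ass1 was at 62.2, 49.8, 67.9 and 122 CPM in control replicates 1 to 4 and at 177, 196, 380.1 and 308 CPM in cKO replicates 5 to 8. All cKO mice lay above all control mice. The means were 75.4 ± 31.8 and 265 ± 95.9 CPM (SD, n = 4 each), and edgeR gave a log2 fold change of 1.92 (SE 0.31). For the Gm5424 row the log2 fold change was 1.94 (SE 0.30), and for the sum of both rows it was 1.93 (SE 0.30), with means of 155 and 547 CPM. Whether 1 molecule was counted in both rows was not tested, so these summed means may count molecules more than once. Asl (chr5:130011258-130029247), the next enzyme of the route, was at 49.4, 52.6, 32.3 and 66.0 CPM in control mice and at 38.2, 40.5, 64.4 and 59.5 CPM in cKO mice, in the same order. The groups overlapped, with a log2 fold change of 0.12 (SE 0.22, adjusted p = 0.817, quasi-likelihood test of edgeR, Benjamini-Hochberg method over all genes).

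The genes that use arginine varied far more between mice. Arg1 (chr10:24915221-24927484) was at 27.1, 3.67, 57.7 and 19.2 CPM in control replicates 1 to 4 and at 24.1, 16.9, 189 and 42.0 CPM in cKO replicates 5 to 8. The groups overlapped, cKO replicate 7 stood far above the other mice, and the log2 fold change of 1.81 had an SE of 0.79. Without cKO replicate 7 it was 0.44, and without the cells of cluster 4 (described below) it was 0.65. Arg2 (chr12:79130777-79156301) was at 14.4, 3.36, 13.6 and 43.8 CPM in control mice and at 26.1, 57.4, 200.3 and 80.1 CPM in cKO mice. Control replicate 4 lay above cKO replicate 5, and the log2 fold change was 2.42 (SE 0.66, adjusted p = 0.0589 from edgeR). Without control replicate 4 the same test gave 3.42 (adjusted p = 0.0129) and without cKO replicate 5 it gave 2.69 (adjusted p = 0.0458), which are past the threshold of 0.05. Without cKO replicate 7 it was 1.67 (adjusted p = 0.212).

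Nos2 (chr11:78920787-78960254) was hardly seen, with 9 UMIs in 8 of 3213 cells. Of these, 7 UMIs were in cKO replicate 7, and 1 each in control replicate 2 and cKO replicate 8. Slc7a2 (chr8:40862396-40922308) had 22 UMIs in 15 cells. Control replicates 1 to 4 held 2, 0, 1 and 2 of them, and cKO replicates 5 to 8 held 1, 3, 10 and 3. Neither passed the filter on low counts, so they were not in the main fit and no test of them is given. With so few UMIs, a difference in these genes can be neither shown nor excluded.

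The polyamine genes were higher in the cKO group by a smaller factor. Odc1 (chr12:17544794-17551505) was at 40.1, 38.2, 42.4 and 55.9 CPM in control mice and at 103, 89.5, 74.4 and 62.6 CPM in cKO mice. Its groups did not overlap, and it rose by 0.96 on the log2 scale (SE 0.19, adjusted p = 0.0183 from edgeR). Sat1 (chrX:155213132-155216449) was at 625, 561, 452 and 689 CPM in control mice and at 736, 749, 894 and 919.9 CPM in cKO mice. All cKO mice lay above all control mice, and Sat1 rose by 0.60 (SE 0.15, adjusted p = 0.0478 from edgeR). These genes were picked with results of the data known, so their p-values are not independent evidence. Odc1 lost its call without control replicate 1 (adjusted p = 0.0675) or 2 (adjusted p = 0.0777). Sat1 lost it without replicates 1, 2, 3, 6, 7 or 8 (edgeR, adjusted p between 0.0737 and 0.155).

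Cell types moved with these levels. Dendritic cell-like cells made up 19.9 to 27.5% of the cells of control mice and 4.75 to 9.45% in cKO mice, and stromal-like cells 2.37 to 7.06% against 0.413 to 2.30%. The marker sums of these types overlapped between the groups. The 9 dendritic cell markers summed to 1028 to 1212 CPM in control and 814 to 1329 CPM in cKO mice. Their highest sum was in cKO replicate 7, which had the lowest share of dendritic cell-like cells (4.75%). The 8 stromal markers summed to 633 to 2134 CPM and 203 to 783 CPM. Monocyte-like cells made up 7.13 to 8.56% in control and 16.8 to 21.8% in cKO mice. The 9 monocyte markers summed to 1643 to 3358 CPM in control mice and 7091 to 10464 CPM in cKO mice, and the 14 macrophage markers to 11905 to 23707 CPM and 9994 to 16132 CPM. Both sorted cell types thus had their markers in every mouse. The 11 lymphoid markers measured, of a class that the sort should remove, summed to 212 to 8819 CPM and 4319 to 13003 CPM, and epithelial markers to 3.94 to 18.3 CPM in every mouse. In a sum over all cells, more cells with a transcript and more transcript per cell cannot be told apart. With the dendritic cell-like, lymphoid-like and stromal-like clusters left out, the log2 fold change was 2.69 for Ass1, 0.79 for Odc1 (adjusted p = 0.111 from edgeR) and 0.28 for Sat1 (adjusted p = 0.365).

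Of the 9 genes, 7 passed the filter on low counts and 4 of these were called higher and none lower (edgeR, adjusted p below 0.05). Over all 11387 genes tested, 4.48% were called, 2.99% as higher and 1.48% as lower, and the mice of the groups did not overlap in 12.3%. The same 4 genes, Ass1, Gm5424, Odc1 and Sat1, were those without overlap. The pair had been chosen by this contrast, so nothing is read from the count. Scaling by library totals in place of TMM shifted the median gene by -0.10 on the log2 scale and gave 270 higher and 261 lower calls, against 341 and 169. The 4 genes stayed higher, with log2 fold changes lower by about that shift, but Sat1 was then not called (0.50, adjusted p = 0.0859 from edgeR).

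**Figure D2:**
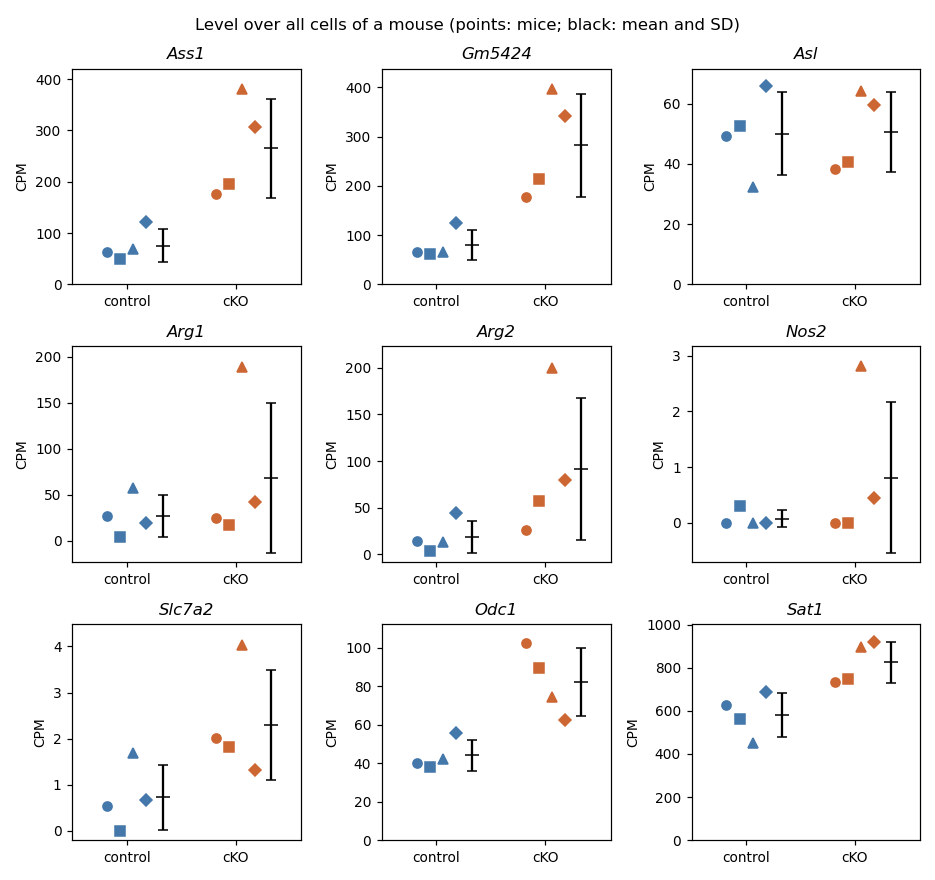
CPM of each of the 9 genes over all cells of a mouse (y axis, with 0 shown in every panel), for the 4 control mice in blue and the 4 cKO mice in orange, with the mean and SD in black and a circle, square, triangle and diamond for the mice of a group in order. The groups are apart for Ass1, Gm5424, Odc1 and Sat1, and cKO replicate 7 (orange triangle) is the highest mouse for Arg1, Arg2, Nos2 and Slc7a2.

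The other genes of the pathways were taken from 5 lists of 80 genes, of which 61 passed the filter. Of these, 1 rose and 3 fell (edgeR over all genes), against 2.99 and 1.48% of all genes tested. The groups did not overlap for 9 of the 61, against 12.3% of all genes. No test of these counts was made, so nothing is read from them, in total or by list. The median log2 fold change was -0.03, as over all genes. Gch1, which makes the first intermediate of the cofactor tetrahydrobiopterin of nitric oxide synthases, was at 30.3, 18.7, 16.97 and 12.5 CPM in control replicates 1 to 4 and at 74.4, 60.5, 119 and 62.1 CPM in cKO replicates 5 to 8. The groups did not overlap, and Gch1 rose by 2.09 (SE 0.31, adjusted p = 0.00429). It was the only one of 10 genes tested for nitric oxide synthesis that was called, and it kept its call in every alternative run over all cells. Of the urea cycle, aspartate and proline genes, 2 of 15 fell. Fumarase (Fh1), which acts on the fumarate that Asl releases, had 104, 96.6, 112 and 147 CPM in control and 38.2, 64.1, 52.7 and 55.1 CPM in cKO mice (log2 fold change -1.0, SE 0.19, adjusted p = 0.0139). Ornithine aminotransferase (Oat), which leads ornithine toward proline and glutamate, had 113, 135, 126 and 138 CPM in control and 62.3, 79.8, 68.8 and 73.9 CPM in cKO mice (-0.73, SE 0.14, adjusted p = 0.0161). For both genes no mouse of one group reached the range of the other. Both lost their calls without the dendritic cell-like, lymphoid-like and stromal-like clusters (edgeR, adjusted p = 0.0526 for Fh1 and 0.0534 for Oat). In the list of creatine and other uses, 1 of 9 fell. This was brain-type creatine kinase (Ckb), with 428, 683, 577 and 463 CPM in control and 267, 251, 104 and 315 CPM in cKO mice (-1.12, SE 0.28, adjusted p = 0.0426). Without the dendritic cell-like, lymphoid-like and stromal-like clusters it gave -0.44 (adjusted p = 0.485). None of 7 transport genes was called (edgeR, median log2 fold change 0.15), with Slc3a2 at 0.02 (adjusted p = 0.976). None of 20 polyamine genes of the list was called (median 0.11). There, Oaz1, the antizyme that inhibits Odc1, was at 864 to 1080.4 CPM in control and 846 to 1005 CPM in cKO mice (0.02, SE 0.13, adjusted p = 0.967).

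The cells were then divided into 9 clusters, built without these genes and the lists. Cluster 1 was lymphoid-like (181 cells, led by Jchain and Mzb1), cluster 5 macrophage-like (449 cells, Fcrls and Pf4), cluster 7 stromal-like (86 cells, Dcn and Col3a1), cluster 8 monocyte-like (408 cells, Chil3) and cluster 9 dendritic cell-like (533 cells, Cd209a and Cd24a). The remaining 4 had too few markers for a name. Cluster 2 (619 cells) was led by Ccl24 and Sirpb1c, and cluster 4 (283 cells) by Il1a, Saa3 and Acod1. Cluster 3 (385 cells, Cebpb and Dusp2) and cluster 6 (269 cells, Ccl8 and Pf4) had a median UMI count of 0.364 and 0.235 of that of their own mouse. The 14 macrophage markers summed to 57228 CPM in cluster 6 and 59336 CPM in cluster 5. Cluster 5 is thus not the only cluster high in these markers. Cluster 4 held 41 control and 242 cKO cells, of which 156 came from cKO replicate 7 and none from control replicates 2 and 3 and cKO replicate 5. It is therefore described but not compared between the groups. The levels by cluster are a description over mice with at least 20 cells. Each cluster was matched to the most similar one of a clustering on all genes. The cells in both over those in either were 0.336, 0.224 and 0.436 for clusters 2, 3 and 4, and at least 0.548 for the others. Clusters 2 and 3 had the same match, so levels in clusters 2, 3 and 4 depend on the clustering.

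Ass1 had its highest mean level in cluster 4 (496 ± 215 CPM, SD, n = 4 mice), which exceeded the 171 ± 137 CPM of cluster 2 by more than the larger SD. These means pool the groups, and cluster 4 has 3 cKO mice and 1 control mouse. In cKO mice cluster 4 was at 596 ± 92.2 CPM and cluster 2 at 282 ± 98.6 CPM. In control mice, cluster 4 of replicate 4 was at 193 CPM, close to the 189.96 CPM of cluster 9 of the same mouse, and the control means of clusters 1, 9, 3 and 2 were 134, 111, 71.9 and 60.0 CPM. Below these, the order of the pooled means was cluster 9 (164 CPM), 3 (139 CPM), 8 (137 CPM), 1 (102 CPM), 5 (70.8 CPM), 6 (35.3 CPM) and 7 (14.1 CPM in 1 mouse), where no neighbours differed beyond their spread. Cluster 4 held 941 of 2859 Ass1 UMIs (32.9%) and 9.19% of all UMIs. Asl was even, with means between 40.6 CPM in cluster 3 and 59.4 CPM in cluster 1 wherever at least 4 mice were measured. Arg2 followed a narrower pattern, with 327 ± 57.1 CPM in cluster 4, followed by cluster 3 with 77.4 CPM, cluster 2 with 58.9 CPM and cluster 8 with 47.4 CPM. It was at 8.16 CPM or less in clusters 1, 5, 6, 7 and 9. The drop from cluster 4 to 3 and that from 8 to 6 exceeded the larger SD. Cluster 4 held 580 of 992 Arg2 UMIs (58.5%), and its control mouse with at least 20 cells, replicate 4, was at 314 CPM, within the 275 to 408 CPM of the cKO mice.

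Arg1 was spread unevenly over cells. Cluster 4 had 172 ± 150.4 CPM and cluster 3 had 164 ± 287 CPM, then came cluster 1 (63.8 CPM) and cluster 2 (49.4 CPM), and no neighbours in this order differed beyond their spread. The level in cluster 4 was that of the cKO mice, at 123, 365 and 194 CPM in replicates 6, 7 and 8, while control replicate 4 was at 6.04 CPM. In control mice the means of clusters 3 and 1 were higher, at 248 ± 378 and 43.2 ± 25.1 CPM. This order depended on the clustering. With clusters built on all genes, the match of cluster 4 had 527 cells. Its control mouse was at 168 CPM of Arg1 and its cKO mice at 142 ± 113 CPM. Of 811 Arg1 UMIs, 466 (57.5%) were in 10 of the 127 cells with any, and 7 cells held 50% of them. The cell with most had 101 UMIs and the next 93, both in cKO replicate 7, and the third had 90 of the 102 Arg1 UMIs of control replicate 1. A single cell of control replicate 3 held 33 of the 34 of that mouse. None of the 10 cells was called a doublet. With the 7 cells left out, Arg1 stood at 3.19, 3.67, 1.71 and 19.2 CPM in control replicates 1 to 4 and at 24.1, 16.9, 74.9 and 42.0 CPM in cKO replicates 5 to 8, values given without a test since the cells were chosen by their counts. The share of cells with an Arg1 UMI was 1.10, 1.39, 2.35 and 3.64% in control and 2.41, 2.87, 11.4 and 5.30% in cKO mice. No Arg1 UMI was found in 433 control and 100 cKO cells of the dendritic cell-like cluster, which allows shares of up to 0.693 and 3.0% by counting error, nor in 86 stromal-like cells.

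**Figure D3:**
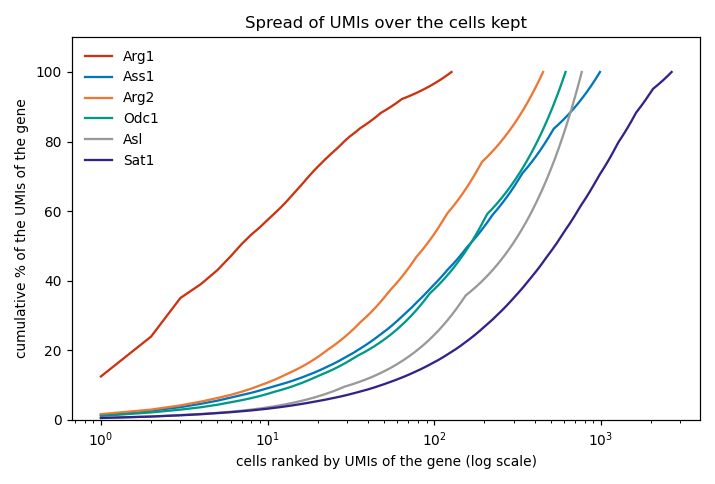
Cumulative percentage of a gene's UMIs (y axis) against its cells ranked by their UMIs of that gene (x axis, log scale), for 6 of the genes over all cells kept. The line of Arg1 passes 57.5% at 10 cells, where that of Sat1 is at 3.19%.

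The other members had patterns of their own. Odc1 was highest in cluster 3 (131 ± 48.7 CPM) and cluster 1 (117 ± 35.5 CPM), and cluster 1 exceeded cluster 2 (79.6 ± 33.4 CPM) by more than the larger SD. It was lowest in cluster 6, with 3 UMIs in all. Sat1 lay at 795 to 1181 CPM in clusters 2, 3, 4, 5, 6 and 8, with the highest mean in the monocyte-like cluster, and at 366, 351 and 201 CPM in the dendritic cell-like, stromal-like and lymphoid-like clusters. The step from cluster 4 to cluster 9 exceeded the larger SD. Of the 9 Nos2 UMIs, 6 were in 6 cells of cluster 4, and of the 22 of Slc7a2, 12 were in 7 of its cells. Over the mice of both groups, 6 of the 9 rows, Ass1, Gm5424, Arg1, Arg2, Nos2 and Slc7a2, had their highest mean in cluster 4, of which 3 of 4 mice were cKO. Ass1 and Gm5424 are 1 measurement, and only this pair and Arg2 exceeded the next cluster by more than the larger SD. The share of all genes with their highest mean in cluster 4 was not computed, so nothing is read from this count. In cKO mice alone this held for these rows except Nos2, which was higher in cluster 3. In control mice, where cluster 4 is replicate 4 alone, it did not hold for Arg1 and Nos2. With clusters built on all genes, Arg1 had its highest mean in the match of cluster 4 in control mice but not in cKO mice. Of the 127 cells with an Arg1 UMI, 49 had one of Arg2 (38.6%), which was 10.9% of the 450 cells with Arg2.

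**Figure D4:**
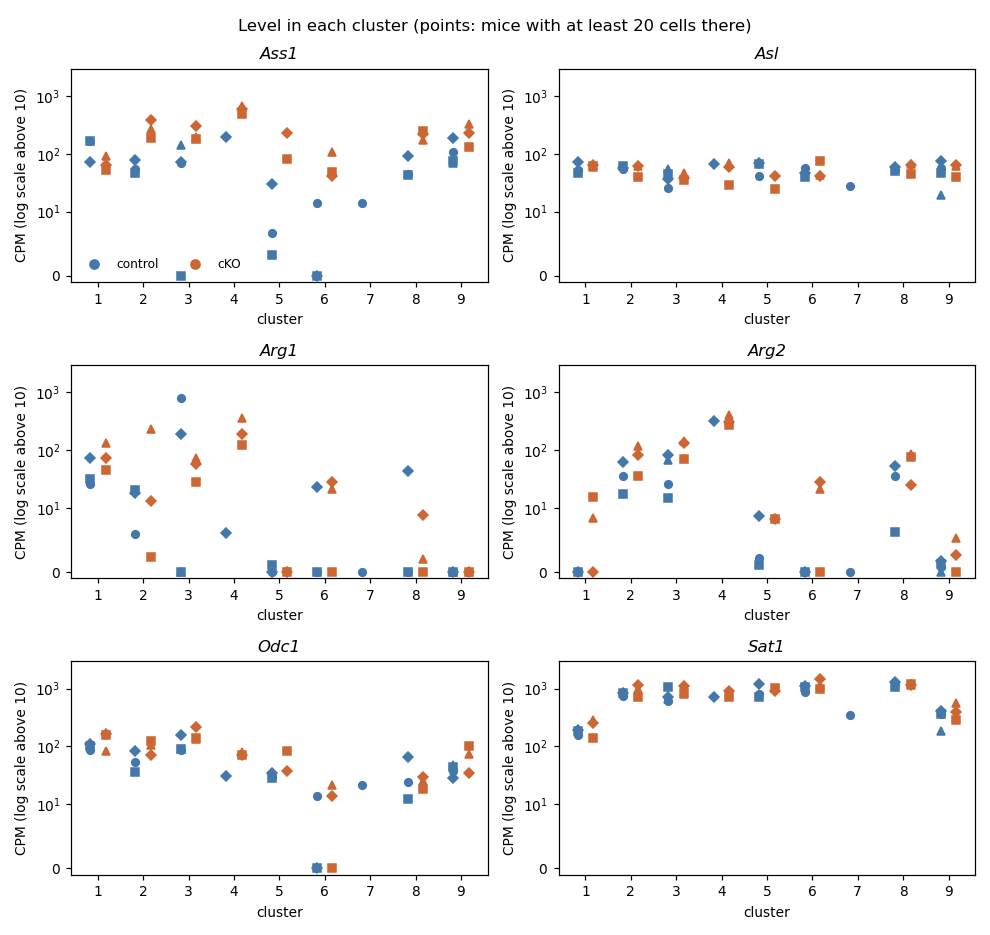
CPM (y axis, log scale above 10 and linear below) of 6 of the genes in each of the 9 clusters (x axis), with 1 point per mouse that had at least 20 cells there, control in blue and cKO in orange. In cKO mice Ass1, Arg1 and Arg2 have their highest mean in cluster 4. There the control mouse is low for Arg1 (6.04 CPM), which did not hold with clusters built on all genes. Asl is level, and Sat1 is lower in clusters 1, 7 and 9 than in the others.

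Within clusters, the higher Ass1 level of cKO mice was seen in most but not all. In cluster 2 it was at 54.0, 47.1 and 78.9 CPM in control replicates 1, 2 and 4 and at 191, 267 and 387 CPM in cKO replicates 6, 7 and 8 (log2 fold change 2.16, SE 0.35). In the monocyte-like cluster 8 the same mice had 44.0, 43.8 and 92.0 CPM against 251, 171 and 222 CPM (1.98, SE 0.42). In neither cluster did the groups overlap. The share of all genes without overlap was not computed within clusters, so nothing is read from a lack of overlap in any cluster. In the macrophage-like cluster 5, control replicates 1, 2 and 4 were at 6.62, 3.31 and 30.4 CPM and cKO replicates 6 and 8 at 82.6 and 231 CPM (4.08, SE 0.55, with 16 UMIs in the control mice). In cluster 3 the 4 control mice had a mean of 71.9 ± 59.3 CPM and the 3 cKO mice 228 ± 68.9 CPM, without overlap (1.69, SE 0.46). The dendritic cell-like cluster 9 had 111 ± 55.1 CPM in 4 control mice and 234 ± 101 CPM in 3 cKO mice, which overlapped (0.96, SE 0.32). In the lymphoid-like cluster 1 the cKO mean was the lower one and the groups overlapped, with 165, 166 and 72.0 CPM in control replicates 1, 2 and 4 and 53.3, 91.9 and 65.4 CPM in cKO replicates 6, 7 and 8 (-0.89, SE 0.52). Cluster 6 held 1 control and 10 cKO UMIs, too few for a fold to be read.

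Each cell was also thinned to 1000 UMIs, which left out 99 control and 79 cKO cells of lower depth. The share of cells with an Ass1 UMI was then 6.89% in control and 18.1% in cKO cells of cluster 2 (21.4 and 58.1% without thinning), and 4.00 and 17.7% in cluster 8 (15.1 and 50.8%). In cluster 5 it was 0.554 and 7.06% (3.59 and 32.2%), and in cluster 1 it was 9.09 and 8.89% (30 and 22.0%). In the stromal-like cluster, 3.08% of the 65 control cells deep enough had an Ass1 UMI after thinning (4.41% of all 68 without). The control share of cluster 5 was no higher than this, so its control level is not read as expression, and the size of the fold there rests on it. Whether stromal-like cells lack Ass1 was not tested.

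Of 11087 genes tested within clusters, 0.0722% were called in cluster 1, 0.676% in cluster 2, 0.64% in cluster 3, 0.406% in cluster 5, 0.0631% in cluster 6, 0.46% in cluster 8 and 0.478% in cluster 9 (edgeR, adjusted p below 0.05). Of the 7 genes tested here, Ass1 and Gm5424 were called in clusters 2, 5 and 8, Gm5424 alone in cluster 3, and none in clusters 1, 6 and 9. The pair was chosen by its difference between the groups in the same counts, so nothing is read from these calls. That Gm5424 passed in cluster 3 and Ass1 did not is no difference between the rows, which are 1 measurement. Arg2, Odc1, Sat1 and Asl were not called in any cluster. Odc1 had log2 fold changes of 0.47, 0.68, 0.72, 0.63, -0.32 and 0.78 in clusters 1, 2, 3, 5, 8 and 9 (SE 0.30 to 0.48, adjusted p between 0.497 and 0.950). Sat1 had 0.34, 0.21, 0.42, -0.07, 0.33, 0.09 and 0.24 in clusters 1, 2, 3, 5, 6, 8 and 9 (SE 0.22 to 0.30, adjusted p between 0.660 and 0.974), each below its 0.60 over all cells. Asl had -0.89 in cluster 5 (SE 0.44, adjusted p = 0.537), where its mice did not overlap but the cKO side rested on 13 UMIs, and -0.10 to 0.27 in the other 6 clusters. Arg2 had 0.89, 1.36 and 1.04 in clusters 2, 3 and 8 (SE 0.37, 0.53 and 0.50, adjusted p between 0.372 and 0.674). Of 56 pathway genes tested there, 1 was called in any cluster. Gch1 rose by 3.47 in cluster 3 (SE 0.70, adjusted p = 0.00325), from 11.96 ± 12.8 CPM in 4 control mice to 107 ± 39.6 CPM in 3 cKO mice, which did not overlap. Without cKO replicate 7 it was at 3.13 (adjusted p = 0.0949).

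The difference of the cKO effect between clusters was called for 0.0541% of all genes. Among the 7 genes the calls were Ass1 and Gm5424, which are 1 measurement chosen by its difference between the groups, and nothing is read from them. Neither was called when control replicate 1 or 2 or cKO replicate 6 or 8 was left out, and 1 of the 2 was called when doublet calls were left out. For Arg1 the fold changes had both signs, with 2.54 (SE 0.81) in cluster 2 and -2.25 (SE 0.84) in cluster 3, where control replicate 1 was at 799 CPM and control replicates 2 and 3 at 0. In each of these clusters a single cell held most Arg1 UMIs of its mouse there, with 93 UMIs in cluster 2 (cKO replicate 7) and 90 in cluster 3 (control replicate 1). Its difference between clusters was not called.

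**Figure D5:**
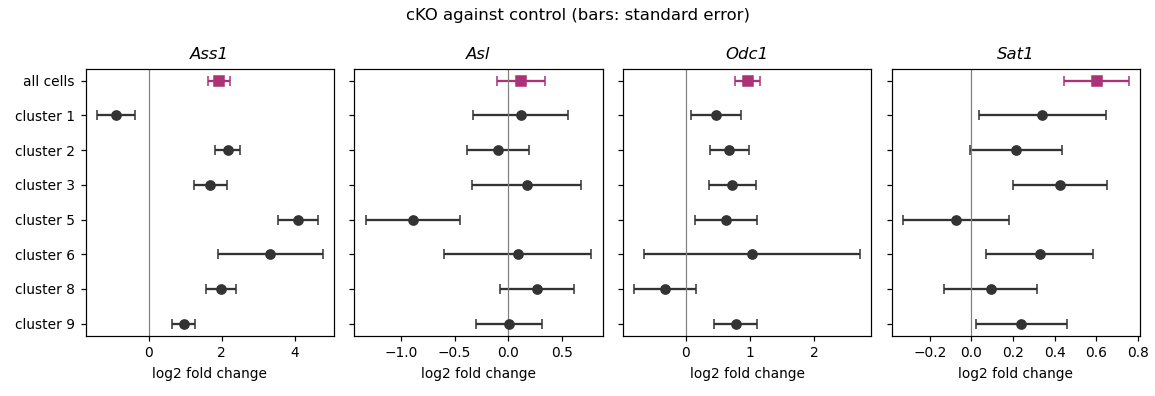
Log2 fold change of cKO against control mice (x axis, with its SE as a bar) for Ass1, Asl, Odc1 and Sat1 over all cells (square) and in each of the 7 clusters compared (circles), with a scale of its own in each panel. Ass1 ranges from -0.89 in cluster 1 to 4.08 in cluster 5 (16 control UMIs), and Sat1 lies between -0.07 and 0.42 in the clusters against 0.60 over all cells.

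Across the 48 sums of a mouse and a cluster, the genes whose log2(CPM + 1) was most like that of Ass1, after Gm5424 (Pearson's r = 0.96), were Samd9l (0.79) and Otub1 (0.75). For Arg1 they were Slpi (0.62), Upp1 (0.61) and Nfkbia (0.60). For Arg2 they were Trem1 (0.89), Clec4e (0.88) and H3f3b (0.87). These sums share mice, libraries and cell types, and no test was made of the correlations.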

How the data were processed

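The authors aligned 3′ reads to mm10 with EYFP added (Cell Ranger, STAR 2.5.3a), and deposited 1 table of UMI counts, not normalized, with genes as rows and the cells of the 8 mice as columns. STAR was set to put out at most 1 alignment per read, so a read that fits both Ass1 and Gm5424 can be counted for either. Each cell's well in its name was joined to the sample titles, and no column was left over. Cells were kept from a log10 of 2.8 UMIs and 2.6 genes, with at most 5% mitochondrial UMIs and no hemoglobin UMI. The methods give 75 mg/kg of tamoxifen, the labels 100 µl of 20 mg/ml. Clusters were built with scran 1.30.0 (11947 genes less 288, 7 components, Ward, 9 clusters) and named only from marker lists among their 10 leading genes. Scrublet (scanpy 1.11.5) marked doublets per mouse, which were kept.

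Sums of UMI counts over a mouse's cells, or over its cells of 1 cluster where there were at least 20, were tested with edgeR 4.0.16 (TMM, quasi-likelihood, Benjamini-Hochberg over all genes, 0.05) under R 4.3.3. Genes needed over 1 CPM in 3 sums and a UMI in 20 cells. The fits were run on simulated data in which each sum was drawn independently, which cannot check the treatment of sums of the same mouse. Printed CPM are per library total, while fold changes use TMM. Intervals and limits of 3 counts cover counting error only. The fit within clusters took the 48 sums of the 8 mice as independent. Alternatives were DESeq2 1.42.0, limma-voom 3.58.1, other scalings, filters and cells, and leaving out each mouse. Limma-voom took the mouse as a random term within clusters and was not run for the difference between clusters. Leaving out the cells of cluster 4 and the cells with most Arg1 was chosen after seeing the data. The genes and lists were chosen with earlier results of these data known. Genes named are the 9 members, pathway genes past the threshold or, in a list with none, that of the highest mean CPM, Slc3a2, and the 3 most similar genes of Ass1, Arg1 and Arg2. Positions and transcripts are those of GENCODE vM21 (GRCm38).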

Additional observations from a re-analysis of the deposited data

Results flagged for a closer look

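In groups of 4 mice, a mouse that stood apart from the other 3 was looked for in 42 groups of values, and chance alone flags about 1 in 20. Over all cells, control replicate 4 stood apart for Gm5424 (124 CPM), as did cKO replicate 7 for Arg1 (189 CPM) and Nos2 (2.82 CPM) and control replicate 2 for Nos2 (0.306 CPM, 1 UMI). The Ass1 row, read as 1 measurement with Gm5424, was at 122 CPM in control replicate 4 and was not flagged. In cluster 3, control replicate 4 stood apart for Odc1 (157 CPM) and control replicate 1 for Slc7a2 (17.2 CPM, 2 UMIs). For Nos2 in control mice and for Slc7a2 in cluster 3, the other control mice had no UMI. The rule always flags such a group, so the rate of 1 in 20 does not hold there.

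A difference of the cKO effect between the 7 clusters compared was called for the rows Ass1 and Gm5424. The adjusted p was 0.00498 for each row, from edgeR's quasi-likelihood test of the interaction terms. For Ass1, the log2 fold change was -0.89 in the lymphoid-like cluster 1 and positive in the other clusters compared. Not all of these folds can be read. Cluster 6 held too few Ass1 UMIs for a fold to be read. In the macrophage-like cluster the control level was not read as expression. In the lymphoid-like and dendritic cell-like clusters the groups overlapped. The rows are 1 measurement and were chosen with their difference between the groups known. This p is therefore not independent evidence, and nothing is read from the call. Sums of the same mouse were treated as separate in this test. The call was lost without control replicate 1 or 2 or cKO replicate 6 or 8.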

How the results depend on the processing

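No paired analysis was made because the labels give no pairing of control and cKO mice. The log2 fold change of the summed pair of Ass1 and Gm5424, which was chosen by this contrast, ranged from 1.497 without cluster 4 to 2.66 without the dendritic cell-like, lymphoid-like and stromal-like clusters. Of the 7 genes tested over all cells, 4 were called, against 2 with these 3 clusters left out and 2 to 5 when a mouse was left out (2 without replicate 1 or 2). Of the pathway genes 4 were called, against 1 with these clusters left out and 2 to 7 when a mouse was left out (7 without control replicate 4). Within clusters 7 calls were made, 12 with no low-count filter and 4 to 9 when a mouse was left out (4 without replicate 1 or 8). The difference between clusters was called for 2 rows, against 1 with doublet calls left out and 0 to 2 when a mouse was left out. The log2 fold change of Asl turned to -0.014 without the 3 clusters and ranged from -0.040 (without replicate 7) to 0.253 when a mouse was left out. The difference in the share of Gm5424 ranged from -0.90 to 1.17 percentage points when a mouse was left out, with a changed sign without replicate 2 (1.17) or 5 (0.34). The causes were not tested. Arg2 was called with no low-count filter (2.43, edgeR adjusted p = 0.00523). Over all results and alternatives, 407 values kept their side and direction, 39 lost and 13 gained a call, 14 counts moved and 4 values changed sign. Depth limits Nos2, Slc7a2 and the comparisons of Arg1 and Arg2 in clusters 1, 5, 6 and 9.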

Other observations

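In the lymphoid-like cluster 1, 23 of 181 cells had an Arg1 UMI, in 6 of the 8 mice (1, 4, 0 and 4 cells in control replicates 1 to 4, and 0, 2, 7 and 5 in cKO replicates 5 to 8). The following genes were chosen after their values were seen, cells of 1 mouse are not replicates, and no test was made. Gata3, a transcription factor of type 2 lymphocytes, had a UMI in 20 of the 23 cells with Arg1 and in 52 of the other 158. Klrg1 was found in 15 and 25 cells in the same order, Il1rl1, the IL-33 receptor, in 10 and 7, and Il17rb, a part of the IL-25 receptor, in 6 and 8. Il7r was found in 10 and 36 cells and Rora in 10 and 46. The T cell receptor complex genes Cd3e, Cd3d and Cd3g were found in 1, 2 and 1 of the cells with Arg1 and in 47, 53 and 59 of the others, and the B cell receptor gene Cd79a in 3 and 50. The cells with Arg1 had a median of 4232 UMIs and the others of 3463.

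Ass1 was found in 75 of the 127 cells with an Arg1 UMI (59.1%) and in 236 of the 450 cells with an Arg2 UMI (52.4%), against 988 of all 3213 cells (30.8%). Depth and cluster differ between these cells and the rest, and their part was not tested.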
